A study of Homo sapiens with 4 samples.

Results

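The ERBB receptors and their EGF-like ligands were examined in stem-like cells of MDA-MB-231, a long-established cell line from a human triple negative breast cancer, after knockdown of the histone demethylase KDM1A. The members were picked by gene symbol, as receptors, ligands and an inhibitor of 1 family, by a rule that uses no measured value, though with earlier results of these data known. The set held 10 genes of the 23228 listed: the receptors EGFR, ERBB2 and ERBB3, the ligands AREG, EREG, HBEGF, TGFA, BTC and NRG1, and the receptor inhibitor ERRFI1. All 10 passed the filter on low counts. The cells of both groups had been sorted for aldehyde dehydrogenase activity with the ALDEFLUOR kit, grown in MammoCult medium and transduced with a lentiviral vector. In 1 group the vector expressed a control short hairpin RNA (shRNA), and in the other an shRNA against KDM1A, stably in both. Each group had 2 libraries of total RNA. The labels name no further KDM1A shRNA and no rescue, so effects of KDM1A loss cannot be told apart from other differences between these stable cultures. They do not say whether a culture was a clone, or whether libraries of 1 group share a culture. The spread that the p-values rest on may thus be technical.

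ERBB receptors are tyrosine kinases that pair when a ligand binds, and signal through RAS and the RAF, MEK and ERK kinases and through PI3K and AKT. EREG, AREG, TGFA, HBEGF and BTC bind EGFR, and EREG, HBEGF and BTC also bind ERBB4, whereas NRG1 binds ERBB3 and ERBB4. ERBB2 has no known ligand and acts as a partner of the others, and ERBB3 has little kinase activity of its own. Ligands are made as membrane precursors that proteases such as ADAM17 release. ERRFI1, also called MIG6, is induced by ERK signalling and binds the EGFR kinase domain to inhibit it. EGFR is often abundant in triple negative breast cancer, which lacks oestrogen and progesterone receptors and amplified ERBB2.

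Gene reads per library ranged from 23902900 to 26923678, and levels are given as CPM (counts over the library's total, on the usual scale) scaled by TMM, a correction for library composition. KDM1A itself stood at 174 and 167 CPM in the controls and at 23.4 and 25.2 CPM after knockdown. Markers of the line were present in every library (5 of 5; summed 3438 to 3453 CPM in the controls and 4391 to 4443 CPM after knockdown), and ESR1 and PGR, the steroid receptor genes, had 0 to 9 reads. ERBB2, also listed as absent or low in the triple negative state, had 1672 to 2384 reads per library and was higher after knockdown. Markers of other cell types also moved with the groups. All 4 endothelial genes were lower after knockdown (summed 94.4 to 102 CPM in the controls and 53.7 to 55.8 CPM after knockdown). Of 7 leukocyte genes 2 were tested, CD68 and CD14, and both were lower (summed 179 to 182 against 125 to 127 CPM), while PTPRC had 2 to 4 reads per library. Of 4 fibroblast genes tested 2 were lower and 2 higher (133 to 137 against 76.4 to 82.6 CPM). Most of that sum was DCN (126 and 119.6 against 57.7 and 52.4 CPM), which fell with PDGFRA, while COL1A1 and LUM rose. Of 6 luminal genes 5 were higher and 1 lower (555 to 564 against 673 to 705 CPM). The control libraries also held transcripts that go against the label. CDKN2A, CDKN2B and MTAP of band 9p21, which the line is known to lack, summed to 23.2 and 25.4 CPM in the controls and to 1.17 and 1.32 CPM after knockdown. A further 7 genes not typical of the line, picked from earlier results of these libraries, summed to 159 to 167 CPM in the controls and 2.79 to 2.96 CPM after knockdown. Both controls carried them, so no result can be given without them. The part of these transcripts and of the other cell type markers in the changes below was not tested. In bulk RNA, fewer cells that express a gene and less RNA per cell cannot be told apart.

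Of the 10 genes, 8 passed an edgeR adjusted p of 0.05, 5 higher and 3 lower after KDM1A knockdown. Among all 14012 genes tested, 56.1% passed, 27.3% as higher and 28.8% as lower, so the receptors and ligands were measured against a background of wide change. Control and knockdown libraries were fully separated in 9 of the 10, against 77.7% of all tested genes. Most changes were small. ERRFI1 was the 1 gene lower by 2-fold or more (8.54% of all tested genes) and BTC the 1 gene higher by that much (3.07%). The median log2 fold change of the 10 was 0.20, beside 0.00 for all tested genes.

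**Figure D1:**
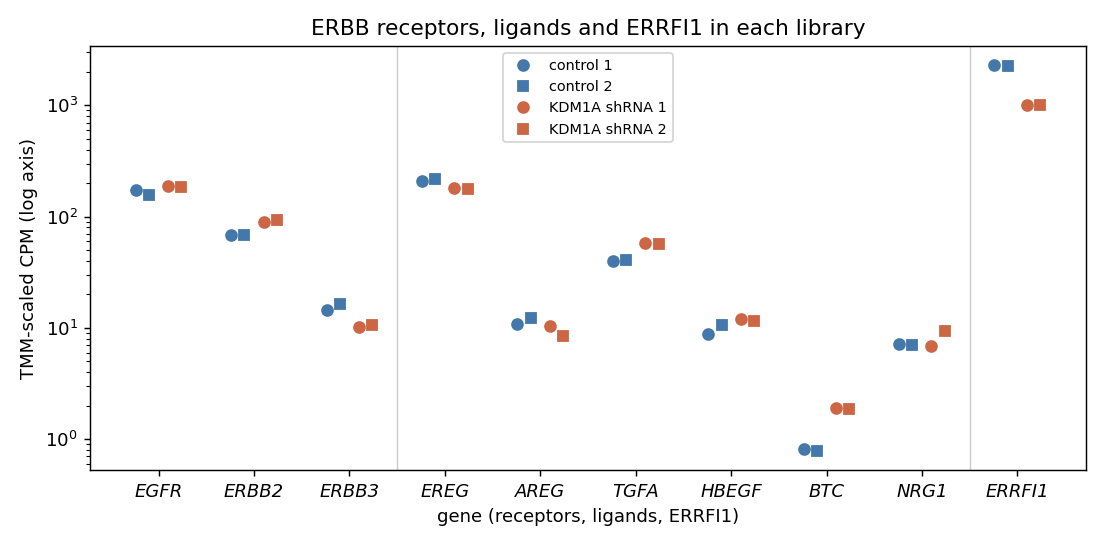
Level of each gene in each library, as TMM-scaled CPM on a log axis, with receptors, ligands and ERRFI1 separated by grey lines. Points are single libraries, and ERRFI1 stands at 1004 CPM or more in all 4 while BTC stays under 2 CPM.

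ERRFI1 was by far the most abundant of the set and changed most in absolute level. It had 61468 and 55085 reads in the control pair, against 24092 and 25909 in the knockdown pair, or 2295 and 2271 CPM against 1006 and 1004 CPM. In the controls it ranked 12 by CPM among all 23228 genes and took 0.228% of gene reads, and 0.101% after knockdown. Both knockdown libraries lay far under both controls, with spreads of 17.3 and 1.26 CPM (SD, n = 2 each). The level fell 2.27-fold (log2 fold change -1.18, SE 0.03, 95% interval -1.25 to -1.12, edgeR adjusted p = 7.9e-13). The 12 alternative analyses gave -1.21 to -1.18. ERRFI1 lies on chromosome 1 (8064464 to 8086369, minus strand, GRCh37).

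The ratio of ERRFI1 to its target EGFR was lower after knockdown. Per base of transcript, ERRFI1 stood at 42.5 and 46.7 times the EGFR level in the controls and at 17.1 and 17.3 times after knockdown. Every knockdown library had the lower ratio. The levels are CPM per kilobase of the Ensembl canonical transcript (RPKM), which depend on the transcript chosen.

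EGFR, on chromosome 7 (55086710 to 55279321, plus strand), stood at 173 and 155 CPM in the controls and at 188 and 186 CPM after knockdown. The knockdown libraries were slightly above both controls, which differed from each other by more than the knockdown libraries did. The rise was 1.14-fold (log2 fold change 0.19, SE 0.05, edgeR adjusted p = 0.0038). Its size rested on which control was used, at 0.27 without control library 1 and 0.11 without control library 2, and leaving out KDM1A shRNA library 1 ended the call (adjusted p = 0.058).

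ERBB2, the ligandless partner on chromosome 17 (37844167 to 37886679, plus strand), rose more clearly. It stood at 68.5 and 68.9 CPM in the controls and at 89.8 and 92.4 CPM after knockdown, with no overlap. The rise was 1.33-fold (log2 fold change 0.41, SE 0.05, edgeR adjusted p = 4.6e-06) and the call held in all 12 alternative analyses. Its exons overlap 571 bases of MIEN1 and 144 bases of PGAP3 on the other strand, as those of EGFR overlap 186 bases of EGFR-AS1, and the strand setting of the counting is unknown here.

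ERBB3, the receptor with weak kinase activity on chromosome 12 (56470583 to 56497289, plus strand), went the other way. Reads numbered 385 and 398 in controls, against 244 and 277 after knockdown, or 14.4 and 16.4 CPM against 10.2 and 10.7 CPM. Both knockdown libraries were lower, at 68.1% of control (0.681-fold, log2 fold change -0.55, SE 0.10, edgeR adjusted p = 0.00029). The fourth receptor, ERBB4, was at a low level, with 26 and 12 control reads against 23 and 17 after knockdown. Its groups overlapped and the interval of its ratio, 0.675 to 1.73 from the summed reads, left a change of either sign within counting error.

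Per base of transcript the receptors ordered as EGFR, ERBB2 and ERBB3 in the controls. EGFR stood at 17.4 and 15.7 RPKM and ERBB2 at 15 and 15.1 RPKM, close neighbours, with ERBB3 well under both at 2.56 and 2.92 RPKM. After knockdown ERBB2 (19.7 and 20.3 RPKM) lay slightly above EGFR (19 and 18.7 RPKM), and ERBB3 stood at 1.81 and 1.91 RPKM. The order of EGFR and ERBB2 depends on the 9905 bases taken for the EGFR transcript.

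**Figure D2:**
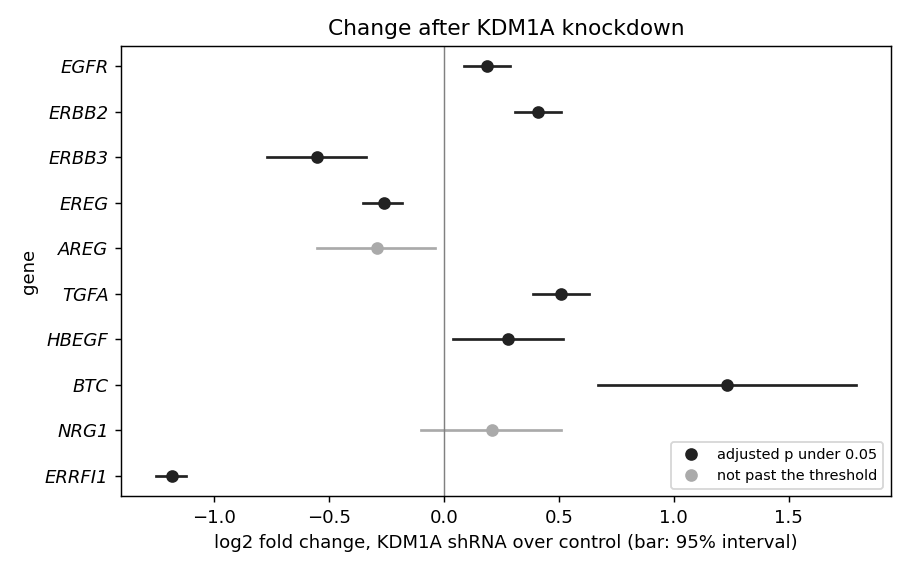
Log2 fold change of KDM1A shRNA over control for each gene, with its 95% interval from the edgeR fit. Black points passed the threshold, and grey points (AREG and NRG1) did not, with ERRFI1 at -1.18 and BTC at 1.23 at the extremes.

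Among the ligands, EREG and TGFA moved in opposite directions. EREG, epiregulin, was the most abundant ligand by reads (chromosome 4, 75230862 to 75254466, plus strand), with 209.5 and 217 CPM in the controls and 179 and 176 CPM after knockdown. Both knockdown libraries were lower. The fall was to 83.3% of control, or 0.833-fold (log2 fold change -0.26, SE 0.04, edgeR adjusted p = 4.8e-05), and all 12 alternative analyses called it, at -0.29 to -0.24.

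TGFA, transforming growth factor alpha (chromosome 2, 70674416 to 70781325, minus strand), stood at 39.6 and 40.9 CPM in the controls and at 57.7 and 57 CPM after knockdown. The groups were separated by many times their spread, and the rise was 1.43-fold (log2 fold change 0.51, SE 0.06, edgeR adjusted p = 2.3e-06; 0.49 to 0.53 over the alternatives).

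BTC, betacellulin, rose 2.34-fold from a very low level, from 22 and 19 control reads to 46 and 48 in the knockdown libraries. The log2 fold change was 1.23 (SE 0.26, edgeR adjusted p = 0.0011). The libraries of each group lay close together, at 0.822 and 0.783 CPM against 1.92 and 1.86 CPM. Only 6.07% of tested genes had a lower control level, and a filter on a mean of 5 CPM removed the gene.

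HBEGF, the heparin-binding ligand, passed only narrowly. It had 8.74 and 10.7 CPM in the controls and 12 and 11.5 CPM after knockdown (chromosome 5, 139712428 to 139726188, minus strand). Control library 2 lay close under the knockdown libraries. The rise was 1.21-fold (log2 fold change 0.28, SE 0.11, edgeR adjusted p = 0.048). It did not pass when control library 1 was left out (0.14, adjusted p = 0.35), with either KDM1A shRNA library left out (0.18 without 1, 0.095 without 2), with DESeq2 (0.18), and with upper-quartile scaling or a 5 CPM filter (0.070 in each).

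NRG1, neuregulin 1, did not pass, at 7.09 and 7.01 CPM in the controls and 6.89 and 9.34 CPM after knockdown. KDM1A shRNA library 1 lay under both controls and library 2 above them, and the 95% interval of the change ran from 0.935-fold to 1.43-fold (edgeR adjusted p = 0.23). Leaving out KDM1A shRNA library 1, the log2 fold change was 0.41 and passed (adjusted p = 0.035), and without library 2 it was -0.03.

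AREG, amphiregulin (chromosome 4, 75310853 to 75320722, plus strand), counted 291 and 297 control reads against 250 and 218 after knockdown, or 10.9 and 12.2 CPM against 10.4 and 8.45 CPM. The groups did not overlap but lay close, and the change of 0.817-fold (log2 fold change -0.29, SE 0.12, 95% interval -0.55 to -0.04) narrowly missed the threshold (edgeR adjusted p = 0.050). It passed in 6 of 12 alternative analyses, with values from -0.45 without KDM1A shRNA library 1 (adjusted p = 0.018) to -0.14 without KDM1A shRNA library 2 (0.44). Without control library 1 it passed at -0.38 (0.0055), and without control library 2 it was -0.21 (0.15).

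The counted AREG reads may come from little of its transcript, because GRCh37 holds a near-identical copy, AREGB (chromosome 4, 75480629 to 75490486, plus strand). The positions of the reads were not examined. The 1234 bases of the AREG transcript aligned to that of AREGB with 1 mismatch. Of the 1135 stretches of 100 bases, the read length, 1035 (91.2%) occur in AREGB without a difference, and 100 do not. Alignments that were not unique were set aside, at 29.7% to 32.2% of each file's total, so the level of AREG is understated by an amount that these counts do not give. If all counted AREG reads came from the 100 distinguishing stretches, AREG would stand at 109 and 122 CPM per 1000 stretches in the controls and at 104 and 84.5 after knockdown, above EREG at 46.4 and 48.1 against 39.6 and 39. The order of the AREG and EREG transcripts is therefore not settled by these files. The other 9 genes had no copy of 100 bases or more at 98% identity elsewhere in GRCh37.

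With AREG left out, the summed RPKM of the EGFR ligands EREG, TGFA, HBEGF, BTC and EGF was 59.3 and 62.1 in the controls and 59 and 58 after knockdown. This total without AREG thus differed little beside the spread of the controls, while its make-up shifted. The level of AREG is not settled here, so the total and shares of all EGFR ligands are not known. EREG held 76.6% and 75.8% of it in the controls and 65.8% and 65.9% after knockdown. TGFA held 16.2% and 16% against 23.8% and 23.9%, and HBEGF 6.25% and 7.32% against 8.65% and 8.45%. These shares are a description, with no test of their own, and depend on the transcripts chosen.

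**Figure D3:**
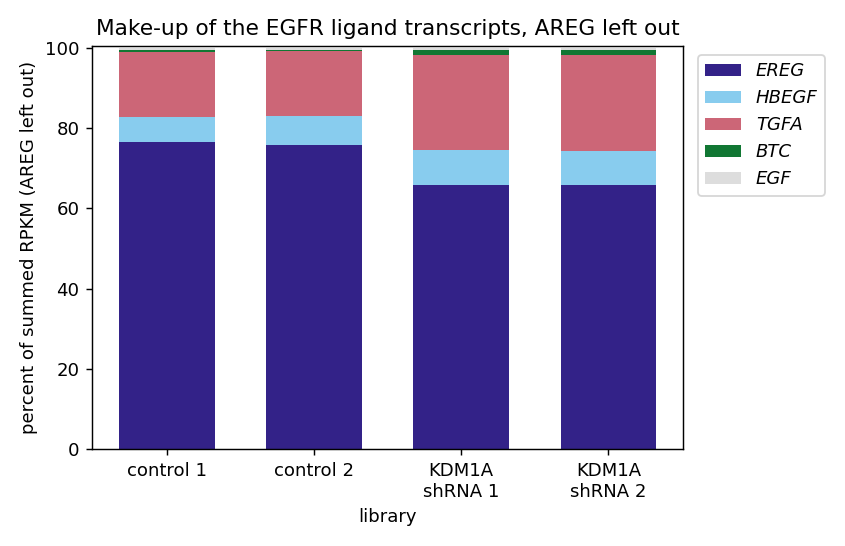
Share of each EGFR ligand in the summed RPKM of the ligands, AREG left out, as stacked bars for the 4 libraries. EREG takes 76.6% and 75.8% in the controls and 65.8% and 65.9% after knockdown, and the TGFA band widens.

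Among the remaining ligands, EPGN and NRG3 had 0 reads in every library, which allows up to 0.111 to 0.126 CPM (3 counts, counting error only). EGF counted 39 and 44 control reads against 51 and 50 after knockdown and did not pass (log2 fold change 0.32, edgeR adjusted p = 0.26). NRG2 had 17 and 18 against 24 and 39 reads and passed as higher (0.88, SE 0.32, adjusted p = 0.032), but not in DESeq2 (0.19), nor without control library 1 (0.12) or KDM1A shRNA library 2 (0.33). NRG4 counted 1 and 0 control reads against 7 and 8 after knockdown and was not tested. The ratio of its summed reads was 15.4, with an exact 95% interval of 2.37 to 648 that covers counting error only.

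EREG, AREG and BTC lie in a row on chromosome 4 with EPGN, next to a cluster of CXC chemokine genes, and did not change as 1 block. Of 16 listed genes of the stretch 12 were tested, and 8 were lower and 1 higher, with a median log2 fold change of -1.60, beside 28.8% lower, 27.3% higher and a median of 0.00 among all tested genes. The chemokine genes at one end, which were not checked for near-identical copies, fell steeply, with log2 fold changes of -2.96 for IL8, -3.33 for CXCL5, -2.42 for CXCL1, -2.39 for CXCL3, -2.06 for PF4 and -1.67 for CXCL2. MTHFD2L, the mitochondrial folate enzyme gene between them and the ligands, did not pass (-0.17, edgeR adjusted p = 0.29). EREG (-0.26) and AREG (-0.29) followed, then BTC (1.23) on the opposite strand. PARM1, on the far side of BTC, fell (-1.52, SE 0.16), and RASSF6, beyond the chemokines, did not pass (0.37, adjusted p = 0.075). CXCL6, PF4V1 and PPBP had 0 to 6 reads per library and were not tested.

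**Figure D4:**
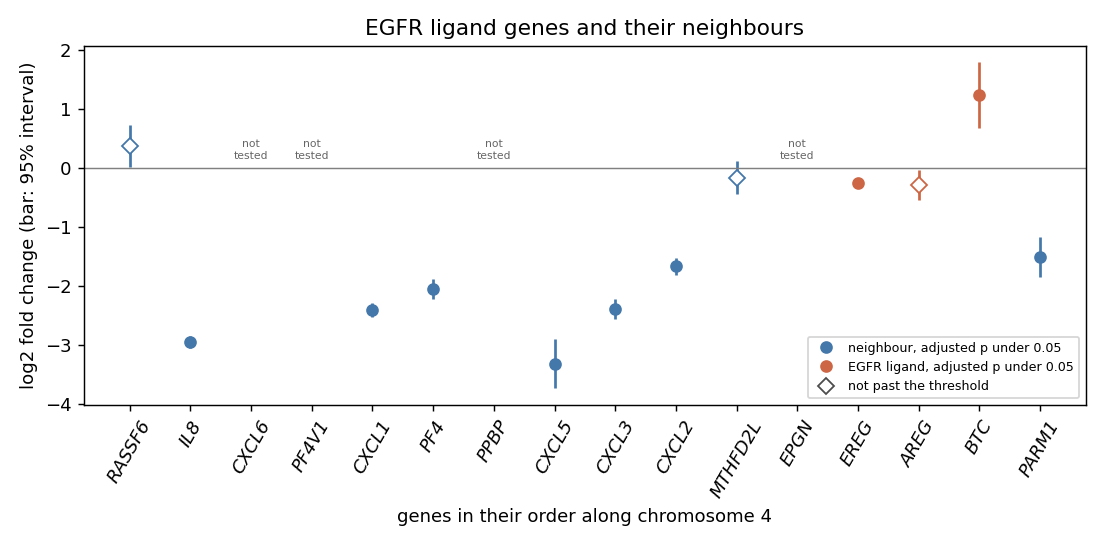
Log2 fold changes with 95% intervals of the genes around EREG, AREG and BTC, in their order along chromosome 4 and not to scale. The chemokine genes lie between -3.33 and -1.67, EREG and AREG near -0.26 and -0.29, and BTC at 1.23.

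The sequences just upstream of these 3 ligand genes and of ERRFI1 are shown because the ligands neighbour each other yet had different fold changes, and ERRFI1 had the largest change in level. Each is the 250 bases before the RefSeq start site in GRCh38.p14, a different build from that of the counts, read 5′ to 3′ on the strand of the gene. Capitals mark matches, on either strand, to the TATA motif (TATAAA), the cAMP response element (TGACGTCA), the AP-1 motif (TGANTCA), the NF-kB motif or the serum response (CArG) motif. The regions are chr4:74364895-74365144 (plus strand), chr4:74444886-74445135 (plus), chr4:74794524-74794773 (minus) and chr1:8026310-8026559 (minus).
EREG: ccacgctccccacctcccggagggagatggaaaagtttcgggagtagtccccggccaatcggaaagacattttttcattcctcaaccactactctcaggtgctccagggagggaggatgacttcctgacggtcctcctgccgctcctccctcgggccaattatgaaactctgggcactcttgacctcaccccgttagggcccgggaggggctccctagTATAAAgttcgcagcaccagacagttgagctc
AREG: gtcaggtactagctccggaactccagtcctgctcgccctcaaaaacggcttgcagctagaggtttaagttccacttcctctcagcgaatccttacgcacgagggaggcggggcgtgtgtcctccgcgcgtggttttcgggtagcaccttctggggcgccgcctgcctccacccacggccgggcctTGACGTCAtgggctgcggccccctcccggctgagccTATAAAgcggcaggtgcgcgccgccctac
BTC: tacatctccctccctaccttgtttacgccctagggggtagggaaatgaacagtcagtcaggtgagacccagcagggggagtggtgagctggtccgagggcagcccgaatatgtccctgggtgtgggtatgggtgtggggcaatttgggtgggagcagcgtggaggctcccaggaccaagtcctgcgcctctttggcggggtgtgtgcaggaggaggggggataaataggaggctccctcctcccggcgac
ERRFI1: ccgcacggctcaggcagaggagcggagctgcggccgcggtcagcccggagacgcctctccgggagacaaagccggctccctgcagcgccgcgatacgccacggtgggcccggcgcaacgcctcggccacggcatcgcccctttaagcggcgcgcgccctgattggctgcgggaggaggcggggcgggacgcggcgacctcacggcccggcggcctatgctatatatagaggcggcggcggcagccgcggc
EREG and AREG each hold 1 TATA match, which 10.7% of 35116 RefSeq promoter windows of that length hold. AREG also holds 1 cAMP response element, found in 1.65% of windows. The windows of BTC and ERRFI1 hold no match to the 5 motifs as searched. For TATA only the exact letters TATAAA counted. The similar letters tatatata in the ERRFI1 window and gataaatag in that of BTC were therefore not matches. Of the 8 genes of the set with a window (ERBB3 and NRG1 were not matched), 2 held an AP-1 match, EGFR at its downstream start and ERBB2, against 6.57% of all windows. TGFA held an NF-kB match at 1 of its starts, against 5.21%. The downstream EGFR window also held 2 TATA matches. EGFR and TGFA have 2 windows each and count if either matches, whereas the percentages are per window. A match describes letters only, and no match says nothing of a factor.

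Genes that ERK signalling induces, like ERRFI1, were largely lower. Of 10 genes for feedback inhibitors of the pathway, 8 were lower and 1 higher, with a median log2 fold change of -0.60. Of 12 induced genes, mostly for transcription factors though IER3 is not one, 11 were lower and 0 higher, with a median of -0.37. Among all tested genes 28.8% were lower, with a median of 0.00. SPRY2, a Sprouty inhibitor of receptor signalling, stood at 119 and 119.8 CPM in the controls and 57.5 and 61 CPM after knockdown (-1.01, SE 0.05, edgeR adjusted p = 4.0e-10). SPRY4 (-0.78, SE 0.04), the ERK phosphatase DUSP6 (743 CPM in each control against 449.8 and 457 CPM; -0.71, SE 0.03) and PHLDA1 (-0.69, SE 0.04) also fell. The early response genes IER3 (439 and 443 against 217 and 227 CPM; -0.99, SE 0.04), EGR1 (-0.83, SE 0.06), IER2 (-0.61, SE 0.08) and KLF6 (-0.23, SE 0.04) fell too. SPRED2, chosen after its value was seen, was the 1 higher member of both lists (0.12, adjusted p = 0.034), and DUSP7 (0.08) and ETV4 (-0.05), also named after their values were seen, did not pass. Several of these genes also respond to other pathways.

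**Figure D5:**
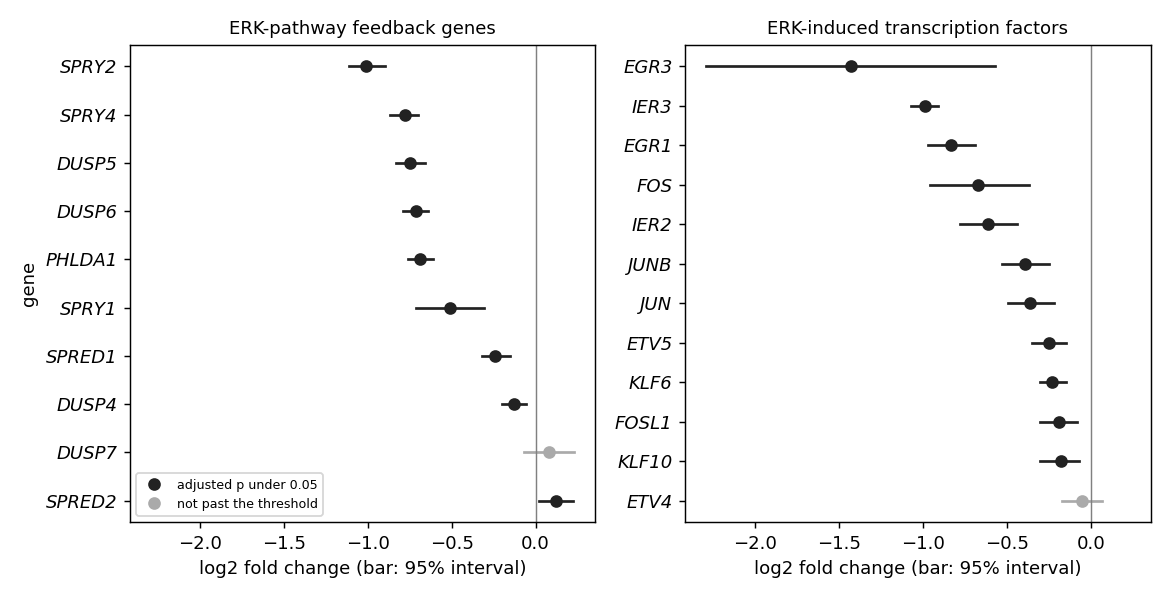
Log2 fold changes with 95% intervals of genes that feed back on ERK signalling (left) and of genes it induces, mostly for transcription factors (right). Black points passed the threshold, and 19 of the 22 lie below 0 and passed, with SPRY2 at -1.01 and IER3 at -0.99.

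Of 11 genes listed for ligand shedding and trafficking, not all of which favour release, 6 were lower and 2 higher, with a median of -0.22. The values for all tested genes were 28.8% lower, 27.3% higher and a median of 0.00. ADAM17, the main sheddase of TGFA, AREG, EREG and HBEGF precursors, stood at 143 and 128 CPM in the controls and at 94.9 and 97.7 CPM after knockdown (-0.49, SE 0.05, edgeR adjusted p = 1.7e-06). RHBDF2, an iRhom that carries ADAM17 to the cell surface, fell further (-0.85, SE 0.05, edgeR adjusted p = 8.5e-09). RHBDF1, the other iRhom of the list, chosen after its value was seen, rose instead. It stood at 40.7 and 45.9 CPM in the controls and at 51.7 and 52.4 CPM after knockdown (0.27, SE 0.06, edgeR adjusted p = 0.0026). ADAM10, which sheds BTC and EGF, rose (0.21, SE 0.04), and ADAM9 fell (-0.23, SE 0.03).

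Of 14 tested genes listed for receptor down-regulation and feedback, which do not all act in the same direction, 4 were higher and 4 lower, with a median of 0.02. That is 57.1% called, close to the 56.1% of all tested genes. SH3KBP1, the CIN85 adaptor of CBL in receptor uptake, rose from 28.7 and 30.9 CPM to 81.7 and 87.4 CPM (1.51, SE 0.06, edgeR adjusted p = 5.8e-11), and UBASH3B, a phosphatase that opposes CBL-driven loss of EGFR, rose (0.78, SE 0.05). The ubiquitin ligase genes CBLB (-0.83, SE 0.07) and RNF41, whose product acts on ERBB3 (-0.51, SE 0.05), fell. LRIG1, which lowers ERBB receptors, fell as well (-0.89, SE 0.10) and was chosen after its value was seen.

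Among the adaptors and kinases between receptor and nucleus, 75% and 60% were called, beside 56.1% of all tested genes. Of 12 adaptor and RAS genes, 6 fell and 3 rose (median -0.10), with GAB2 (-0.59) and SOS2 (-0.31) lower and RASA1, a RAS inactivator, higher (0.39). Of 10 RAF, MEK and ERK genes, 4 fell and 2 rose (median -0.09), with MAPK3 (-0.54) and MAP2K1 (-0.27) lower and ARAF (0.33) higher. These 2 lists changed by less than ERRFI1, SPRY2 or IER3 in every member named here.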

How the data were processed

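Reads were single ends of 100 bases from TruSeq total RNA libraries, per the labels' protocols. The submitters' processing notes name CASAVA 1.8.2, TopHat2 2.0.8b, HTSeq and the hg19 build. The annotation and strand setting are not given in the sources used here. The deposited values are raw read counts per gene, 1 file per library. The 5 HTSeq summary lines entered neither totals nor tests, and genes held 59% to 61.1% of each file's total.

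Here, edgeR 4.0.16 under R 4.3.3 compared the counts (TMM, filterByExpr defaults with a minimum count of 10 and total of 15, quasi-likelihood F-test, group only). P-values were adjusted by Benjamini-Hochberg over 14012 genes, with a threshold of 0.05. SE is the absolute log2 fold change over the square root of F, and 95% intervals use the fit's degrees of freedom. The fit was also run on counts simulated from its own means and dispersions. Such a run cannot show whether libraries of a group share a culture. Within each group, the libraries varied beyond sampling noise (chi-square per degree of freedom 3.97 and 1.6). An exact permutation test of 2 against 2 libraries was not used. Positions and transcript lengths are from GENCODE v44 on GRCh37, copies were found with blastn 2.17.0, and promoters are from RefSeq. DESeq2 1.42.0 and limma 3.58.1 served as alternatives.

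The genes and lists were chosen with earlier results of these data known, so no list is independent evidence. Named are all 10 genes, KDM1A, every other ERBB ligand or receptor and every listed neighbour on chromosome 4, and up to 4 genes per other list, past the threshold with the smallest p. Genes outside this rule are marked, and some that it takes are not reported here.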

Additional observations from a re-analysis of the deposited data

How the results depend on the processing

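Over 12 alternatives (RLE, upper-quartile or total scaling, 2 other filters, DESeq2, limma-voom, a block for replicate number, and each library left out), the number of genes called stayed within 1.5 times 7861, and 7 to 9 of the 10 genes passed. Of 653 values of named genes, 628 kept their direction and side of the threshold, 12 lost a call, 10 gained one and 3 changed sign. The sign changes were ERBB4 (-0.27 without control library 2 and -0.17 without KDM1A shRNA library 1; range -0.27 to 0.70 with 1 library left out) and NRG1 (-0.03 without KDM1A shRNA library 2; range -0.03 to 0.41), neither of them called; the cause was not tested. AKT2 lost its call without KDM1A shRNA library 1 (0.051) or library 2 (0.086), and RASSF6 gained one with a filter of 1 count (0.034), with the block (0.035) and without control library 1 (0.0063). With upper-quartile scaling the calls among the 10 genes split 50% higher, against 62.5% as reported, since HBEGF was lost and AREG gained. The largest shift of the median of all genes under another scaling was to -0.03. With 1 library left out, its group's lone library is assumed to vary like the other group.

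The labels number libraries 1 and 2 in both groups, but nothing says that a number marks a shared culture or day, and deviations of same-numbered libraries correlated at 0.0111 across genes, which are not independent. With the replicate block 8142 genes and 9 of the 10 passed, AREG being added at -0.29 (adjusted p = 0.017). The planned sum of AREG and AREGB counts could not be run, since the counts used here held no entry for AREGB. Low counts limit BTC, NRG2, NRG4 and ERBB4.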

Other observations

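Of 12 receptors and surface proteins that cross-talk with EGFR, 6 were higher and 5 lower, with a median log2 fold change of 0.07, beside 27.3% higher and 28.8% lower among all tested genes. The receptor tyrosine kinase AXL (0.62, SE 0.03), the mucin MUC1 (0.88, SE 0.04) and the integrin ITGA6 (0.60, SE 0.04) rose, and LPAR1, a lysophosphatidic acid receptor, fell (-0.69, SE 0.06). Of 10 genes of PI3K and AKT signalling, 3 rose and 2 fell (median 0.01), or 50% called beside 56.1% of all tested genes, with PIK3R1 (0.29) and AKT2 (0.16) higher and PIK3CA (-0.27) lower in edgeR.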
